A study of Mus musculus with 6 samples.

Results

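The 10 genes described here are the core of the mammalian circadian clock and its best-known output genes: Arntl (named Bmal1 in newer annotations), Clock, Per1, Per2, Per3, Cry1, Cry2, Nr1d1, Nr1d2 and Dbp. They were taken by symbol, and 10 of 10 symbols were found among the 55401 gene identifiers of the table. All 10 passed the filter on low counts that left 14212 genes for testing. The samples were pancreatic islets of male mice (C57BL/6, about 20 weeks old). All animals were Pdgfra fl/fl, that is, homozygous for a floxed allele of the PDGF receptor alpha. Mice without Pdx1-Cre gave the 3 control libraries, and mice with Pdx1-Cre gave the 3 KO libraries. Pdx1-Cre is a recombinase driven by the promoter of a transcription factor of the pancreatic lineage. No group with Pdx1-Cre and unfloxed Pdgfra was among the samples, so deletion of Pdgfra and presence of the recombinase cannot be told apart. The labels give neither the time of day of collection nor whether the islets were cultured. The comparison asks how far clock transcripts differed between the groups, as a check of the time of collection.

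The clock is a feedback loop of transcription. The proteins of Clock and Arntl pair and switch on genes that carry E-box elements, among them the Per, Cry and Nr1d genes and Dbp. The PER and CRY proteins then block that pair, while the nuclear receptors REV-ERBα and REV-ERBβ, encoded by Nr1d1 and Nr1d2, repress Arntl. Arntl transcripts in peripheral tissues of the mouse are known to peak when those of Dbp and Nr1d1 are near their lowest, and the ratio of the opposed transcripts is a common readout of the phase of a tissue. Islets have a clock of their own, known for its part in insulin secretion.

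The promoters of Per1, Per3, Cry1 and Nr1d2 are printed, these being the members with a match to a searched control element before their first listed start. RefSeq sequences (build GRCm38.p6) were matched by symbol for 9 of the 10 members, with 13 start sites, the other member being Per2. Windows from 250 bases before to 50 bases after each start were searched on both strands for 5 motifs. These were the E-box CACGTG, the D-box forms TTATGCAA and TTATGTAA that DBP and NFIL3 bind, the core AGGTCA of the element bound by REV-ERB and ROR receptors, and the cAMP response element TGACGTCA. The 250 bases before the first listed start are printed, 5′ to 3′, with matches on either strand in capitals, and no matches overlapped.
Per1, chr11:69098699-69098948, plus strand: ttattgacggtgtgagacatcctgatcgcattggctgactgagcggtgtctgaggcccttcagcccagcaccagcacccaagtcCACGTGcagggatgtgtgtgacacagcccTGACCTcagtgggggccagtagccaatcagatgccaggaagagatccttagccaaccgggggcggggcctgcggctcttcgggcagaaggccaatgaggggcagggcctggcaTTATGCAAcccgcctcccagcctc
Per3, chr4:151044666-151044915, minus strand: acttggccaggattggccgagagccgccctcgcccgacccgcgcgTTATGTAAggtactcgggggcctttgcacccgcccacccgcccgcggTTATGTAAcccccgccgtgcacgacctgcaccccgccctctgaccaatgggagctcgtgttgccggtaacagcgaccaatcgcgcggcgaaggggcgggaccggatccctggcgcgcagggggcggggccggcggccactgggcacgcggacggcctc
Cry1, chr10:85185055-85185304, minus strand: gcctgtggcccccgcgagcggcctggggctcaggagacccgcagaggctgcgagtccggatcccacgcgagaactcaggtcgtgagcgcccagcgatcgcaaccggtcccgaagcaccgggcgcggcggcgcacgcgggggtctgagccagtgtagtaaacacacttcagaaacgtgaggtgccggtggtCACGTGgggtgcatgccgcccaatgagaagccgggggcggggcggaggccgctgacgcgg
Nr1d2, chr14:18239107-18239356, minus strand: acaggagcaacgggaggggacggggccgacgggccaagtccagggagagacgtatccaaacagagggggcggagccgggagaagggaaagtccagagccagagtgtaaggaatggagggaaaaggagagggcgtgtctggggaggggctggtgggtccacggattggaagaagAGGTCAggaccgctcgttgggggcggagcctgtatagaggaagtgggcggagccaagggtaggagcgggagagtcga
The Per1 window held an E-box whose first base lies 166 bases before the start and the D-box TTATGCAA 24 bases before it. It also held the AGGTCA core on the opposite strand 137 bases before the start (printed as its reverse complement). Per3 held the D-box TTATGTAA at 205 and at 158 bases before the start. Cry1 held an E-box 60 bases before the start, and Nr1d2 the AGGTCA core 77 bases before it. The first listed windows of Arntl, Clock, Cry2, Nr1d1 and Dbp held no match to any of the 5 motifs. Of the 9 members with a window, 2 held CACGTG, 1 held TTATGCAA, 1 held TTATGTAA, 4 held AGGTCA and 0 held TGACGTCA. Counted by window, as in the shares that follow, these were 2, 1, 1, 4 and 0 of 13. Arntl and Clock held AGGTCA only at later starts. Of all 32851 RefSeq windows, 7.15% held CACGTG, 0.743% TTATGCAA, 0.938% TTATGTAA, 16.3% AGGTCA and 1.79% TGACGTCA. A match is a description of letters in a short window.

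Library totals ran from 15026094 to 25299689 counts, of which the clock genes took between 3051 and 7843. Whether the libraries stand for separate animals is not stated, so the p-values rest on the spread between these 6 libraries, which may be technical. Pdgfra, counted over all exons, stood at 3.37 to 5.13 CPM (counts scaled to library size with TMM factors) in controls and 1.56 to 4.76 CPM in KO (log2 fold change -0.26, SE 0.34, edgeR adjusted p = 0.869), and so gave no check of the genotype labels. All 16 markers of beta, alpha and delta cells had counts in every library. So did all 42 markers of acinar, duct, fibroblast, endothelial and macrophage cells, although the labels name beta cells. The 15 acinar markers made up 28.0 ± 7.9% of control counts and 22.9 ± 6.5% of KO counts (SD, n = 3 per group), without a difference beyond the spread (p = 0.4 by an exact two-sided permutation test that cannot go below 0.1). They ran from 35.9% in control 1 to 15.5% in KO 3. The summed level of the 8 fibroblast markers was 138 to 284 CPM in controls and 41.0 to 223 CPM in KO, lowest in KO 2. A ribosomal RNA locus, CT010467.1, took 3.32% to 4.51% of counts in controls and 5.36%, 12.6% and 18.5% in KO 1, 2 and 3. Apart from fits with an acinar or a ribosomal RNA covariate, the part of these differences in the clock values was not tested. In bulk RNA, fewer cells of a type and less RNA per cell cannot be told apart.

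None of the 10 clock genes passed the test between KO and control (edgeR quasi-likelihood test, adjusted p under 0.05 over all 14212 genes), where 0.0704% of all tested genes did. DESeq2 also called 0 of the 10. Estimates ran from -0.28 for Dbp to 0.38 for Per1 on the log2 scale, with 6 of 10 positive beside 47.8% of all tested genes. Their median was 0.05, beside -0.01 over all tested genes, and the median size of the estimate, sign aside, was 0.19 beside 0.14. Adjusted p ran from 0.659 to 0.985. Per1 was the 1 member with an unadjusted p under 0.05, beside 7.37% of all tested genes. The groups did not overlap in 2 members, Clock and Nr1d2, beside 13.9% of all tested genes. All 10 intervals lay within a 2-fold change in either direction, the lowest bound being -0.63 (Dbp) and the highest 0.72 (Per1).

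**Figure D1:**
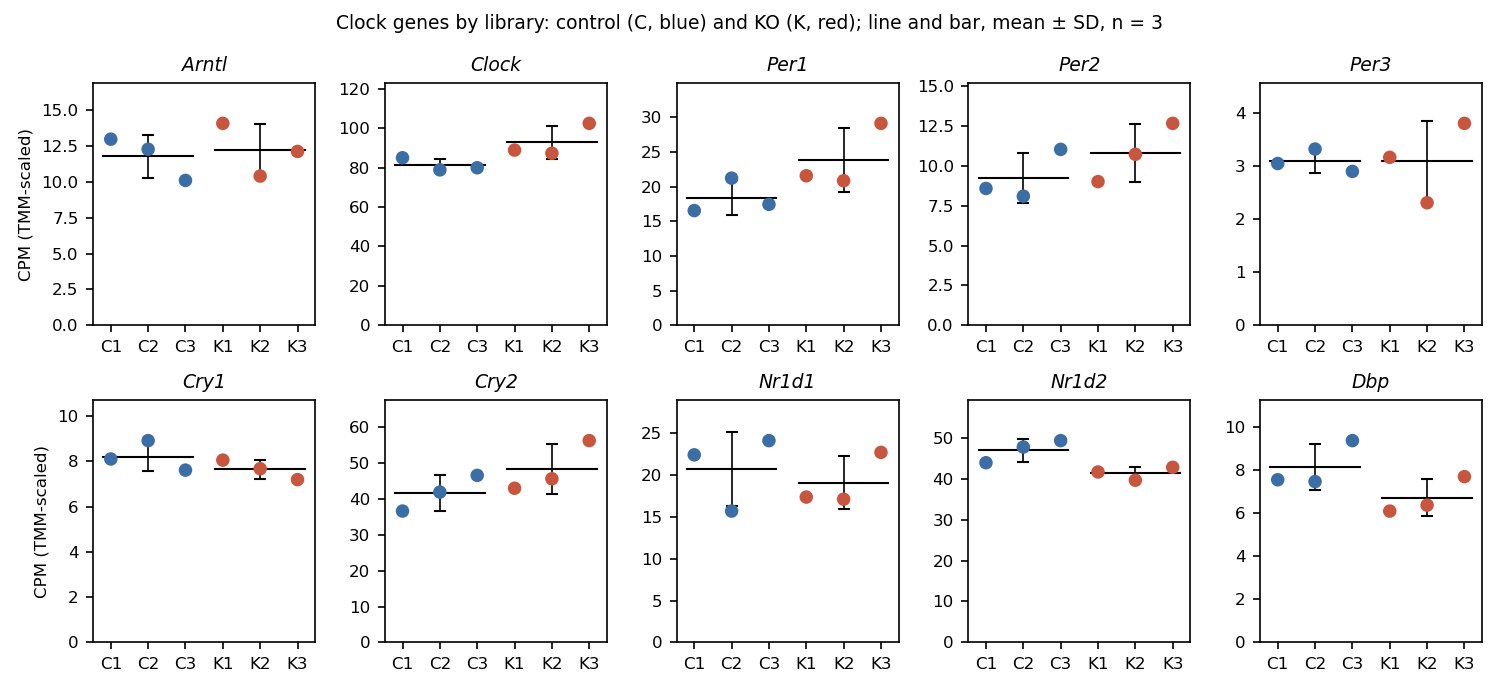
Level of each clock gene in CPM (y axes, from 0) in control libraries 1 to 3 (C1 to C3, blue) and KO libraries 1 to 3 (K1 to K3, red), with the mean as a line and the SD as a bar (n = 3). The groups overlap in all panels but those of Clock, where KO is higher, and Nr1d2, where KO is lower.

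Arntl and Clock encode the activators of the loop. Arntl (ENSMUSG00000055116.8, chromosome 7, 113207465 to 113314126, GRCm38) stood at 13.0, 12.3 and 10.1 CPM in controls 1, 2 and 3 and at 14.1, 10.4 and 12.1 CPM in KO 1, 2 and 3. The groups overlapped, and the spread within each was wider than the distance between their means (log2 fold change 0.07, SE 0.15, 95% interval -0.26 to 0.40, edgeR adjusted p = 0.931). Clock (ENSMUSG00000029238.11, chromosome 5, 76209868 to 76304792) stood at 85.0, 78.9 and 80.0 CPM in controls and at 88.9, 87.3 and 103 CPM in KO. Each KO library was above each control, with KO 3 highest (log2 fold change 0.19, SE 0.10, 95% interval -0.02 to 0.41, edgeR adjusted p = 0.725), and without KO 3 the value was 0.12.

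The period genes encode inhibitors of the loop. Per1, which is also induced by cAMP and glucocorticoids, had the largest estimate of the 10. Per1 (ENSMUSG00000020893.17, chromosome 11, 69095217 to 69109960) stood at 16.5, 21.2 and 17.4 CPM in controls and at 21.6, 20.8 and 29.1 CPM in KO. KO 2 lay below control 2, and KO 3 stood above all other libraries. Its log2 fold change of 0.38 (SE 0.15, 95% interval 0.04 to 0.72) had an unadjusted p of 0.0324 and an edgeR adjusted p of 0.659, and without KO 3 it was 0.21. Per2 (ENSMUSG00000055866.9, chromosome 1, 91415982 to 91459324) stood at 8.58, 8.10 and 11.0 CPM in controls and at 9.01, 10.7 and 12.7 CPM in KO. Control 3 lay above 2 of the 3 KO libraries, and the log2 fold change was 0.21 (SE 0.17, edgeR adjusted p = 0.794). With a library left out it ran from 0.07 (without KO 3) to 0.38 (without control 3). Per3 (ENSMUSG00000028957.12, chromosome 4, 151003652 to 151044665) stood at 3.05, 3.32 and 2.90 CPM in controls and at 3.16, 2.31 and 3.81 CPM in KO. Its lowest and its highest value were both in KO, and the log2 fold change was 0.02 (SE 0.22, edgeR adjusted p = 0.985). Per3 rested on 37 to 100 counts per library, and the exact 95% Poisson interval of the 37 counts in KO 2 was 26.1 to 51.0, which covers counting error only.

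The cryptochrome genes encode the partners of the PER proteins, CRY1 being the stronger inhibitor. Cry1 (ENSMUSG00000020038.10, chromosome 10, 85131700 to 85185064) stood at 8.10, 8.91 and 7.61 CPM in controls and at 8.05, 7.67 and 7.19 CPM in KO. The groups overlapped, and the log2 fold change of -0.10 (SE 0.13) had an edgeR adjusted p of 0.867. With a library left out it ran from -0.16 (without control 3) to -0.04 (without control 2). Cry2 (ENSMUSG00000068742.11, chromosome 2, 92403646 to 92434043) stood at 36.7, 41.9 and 46.6 CPM in controls and at 43.0, 45.7 and 56.3 CPM in KO. KO 3 was the highest library and control 1 the lowest, and control 3 lay above KO 1 and KO 2. Cry2 had a log2 fold change of 0.21 (SE 0.13, 95% interval -0.08 to 0.50) at an edgeR adjusted p of 0.747, and without KO 3 it was 0.08.

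Nr1d1 and Nr1d2 encode the repressors of Arntl. Nr1d1 (ENSMUSG00000020889.11, chromosome 11, 98767932 to 98775333) stood at 22.4, 15.7 and 24.1 CPM in controls and at 17.3, 17.1 and 22.7 CPM in KO. Both the lowest and the highest library were controls. Nr1d1 had a log2 fold change of -0.12 (SE 0.17, 95% interval -0.51 to 0.27) at an edgeR adjusted p of 0.884, and without control 3 it was 0.01. Nr1d2 (ENSMUSG00000021775.11, chromosome 14, 18204054 to 18239127) stood at 43.9, 47.7 and 49.3 CPM in controls and at 41.6, 39.6 and 42.8 CPM in KO. Each KO library lay below each control, control 1 and KO 3 being nearest to each other. The difference was -0.19 on the log2 scale (SE 0.09, 95% interval -0.38 to 0.01), with an edgeR adjusted p of 0.704.

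Dbp encodes an activator that binds D-boxes and is among the most strongly rhythmic outputs of the clock. Dbp (ENSMUSG00000059824.12, chromosome 7, 45705088 to 45710203) stood at 7.54, 7.46 and 9.36 CPM in controls and at 6.09, 6.36 and 7.69 CPM in KO. KO 3 lay above controls 1 and 2, so the groups overlapped. On the log2 scale the difference was -0.28 (SE 0.15, 95% interval -0.63 to 0.07), with an edgeR adjusted p of 0.740, and without control 3 it was -0.16. With the level of CT010467.1 as a covariate the log2 values of Dbp, Nr1d1 and Arntl were -0.47 (SE 0.26), -0.42 (SE 0.27) and 0.25 (SE 0.23), and none passed (edgeR). The share of that locus was higher in each KO library (5.36% to 18.5%) than in each control (3.32% to 4.51%). That fit could therefore hardly tell genotype from the locus, and the lack of a call in it carries little weight. Dbp shares 539 of its 2993 exon bases (18.0%) with Sphk2 on the opposite strand, and Nr1d1 shares 263 of 3077 (8.55%) with Thra. No source used here gives the strand setting of the counting, so reads in the shared bases cannot be assigned with certainty. Sphk2 and Thra had log2 fold changes of 0.06 (SE 0.12, edgeR adjusted p = 0.922) and 0.09 (SE 0.10, adjusted p = 0.845). Cry2 shared 4.67% and Arntl 0.439% of its exon bases with a non-coding gene on the opposite strand.

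**Figure D2:**
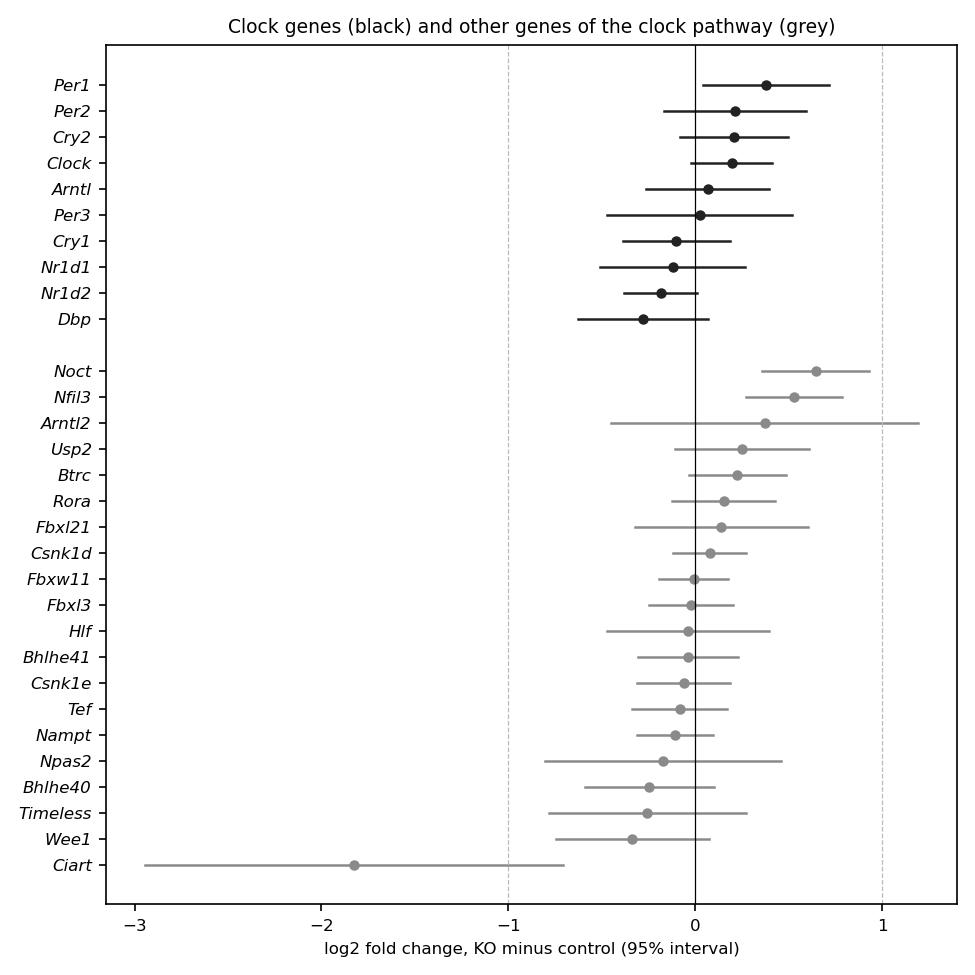
Estimated log2 fold change, KO minus control (x axis), with its 95% interval for the 10 clock genes (black) and 20 other tested genes of the clock pathway (grey), dashed lines marking a 2-fold change. All black intervals lie between the dashed lines, from -0.63 to 0.72, and among the grey genes Ciart stands apart at -1.83.

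The libraries did not order the clock genes alike. KO 3 held the highest value of 5 members (Clock, Per1, Per2, Per3 and Cry2), control 3 that of 3 (Nr1d1, Nr1d2 and Dbp), and KO 1 and control 2 that of 1 each (Arntl and Cry1). The mean deviation of the 10 genes from their own mean was 0.19 log2 units in KO 3, -0.10 in KO 2 and between -0.05 and 0.03 in the other 4 libraries. KO 3 also had the largest share of the ribosomal RNA locus and the smallest of acinar markers, and KO 2 the lowest fibroblast markers, with a mean deviation of -1.76. The span from the lowest to the highest library was widest for Per1, at 1.76-fold, and narrowest for Cry1 and Nr1d2, at 1.24-fold. Npas2, a paralog of Clock that peaks with Arntl, spanned 2.26-fold, from 2.97 CPM in control 2 to 6.74 CPM in control 1.

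The spread between libraries of the same group was then set beside that of other genes. It bears on differences within a group only, and the labels used here give no collection times. The within-group SD of log2 CPM ran from 0.07 for Nr1d2 to 0.28 for Nr1d1, with a median of 0.20 over the 10 members beside 0.18 over all tested genes. Genes with few counts vary more, so each member was also compared with tested genes within 1 log2 CPM of its own level. There 6 of the 10 had a larger SD than the median and 4 a smaller SD. Nr1d1, with 0.28 beside a median of 0.14, lay at percentile 92.4 of such genes, Per1 at 86.2, Cry2 at 81.5, Per2 at 78.3 and Arntl at 72.0. Per3 and Dbp, at percentiles 52.8 and 49.9, were close to the median for their level. Clock (34.6), Nr1d2 (15.2) and Cry1 (12.6) were steadier than most genes of their level. Counting error alone would give an SD of 0.08 for Nr1d1 and 0.07 for Per1, and the measured values were 3.79 and 3.13 times as large. For Cry1 the measured SD of 0.10 was below the 0.12 that counting error gives.

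**Figure D3:**
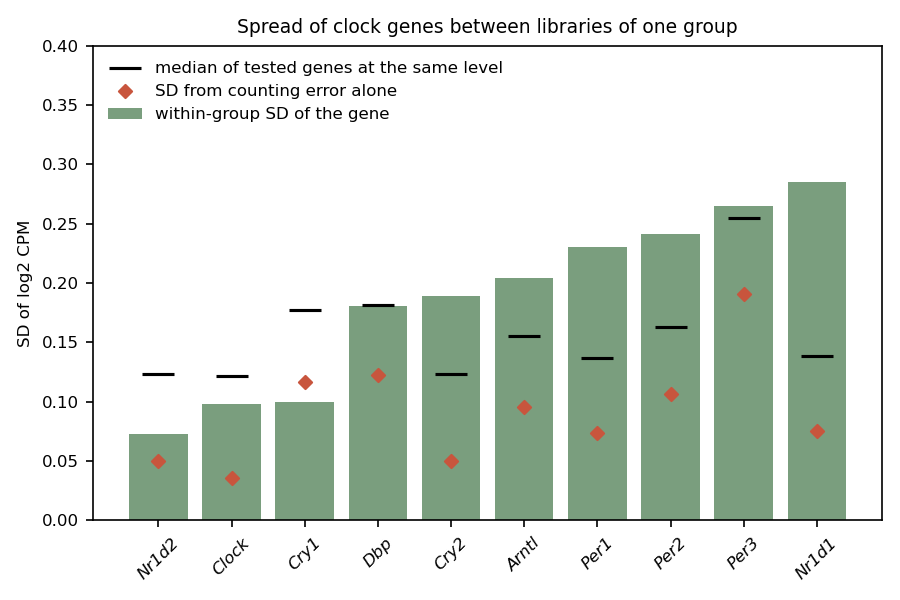
Within-group SD of log2 CPM of each clock gene (bars, 4 degrees of freedom), with the median SD of tested genes within 1 log2 CPM of the same level (black dashes) and the SD that counting error alone would give (red diamonds). Nr1d1, at 0.28, stands furthest above the median of its level, 0.14.

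Ratios of opposed transcripts within a library do not depend on library size. The log2 ratio of Arntl to Dbp was 0.78, 0.72 and 0.11 in controls 1, 2 and 3 and 1.21, 0.71 and 0.66 in KO 1, 2 and 3. The means were 0.54 ± 0.37 and 0.86 ± 0.30 (SD, n = 3 each), a difference of 0.32 that lay within the spread, and the groups overlapped. Control 3 was the lowest and KO 1 the highest library, 2.14-fold apart, and without control 3 the difference was 0.11. The ratio of Arntl to Nr1d1 was -0.78, -0.35 and -1.25 in controls and -0.30, -0.71 and -0.90 in KO. The controls alone spanned almost the whole range of the 6 libraries, and the means, -0.79 ± 0.45 and -0.64 ± 0.31, differed by 0.16. The ratio of Arntl to Per3 differed between the means by 0.07, from 1.92 ± 0.15 to 1.99 ± 0.28. For Npas2 to Dbp the means were -0.91 ± 0.65 and -0.76 ± 0.14, with control 1 highest at -0.16. None of the 4 ratios separated the groups.

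**Figure D4:**
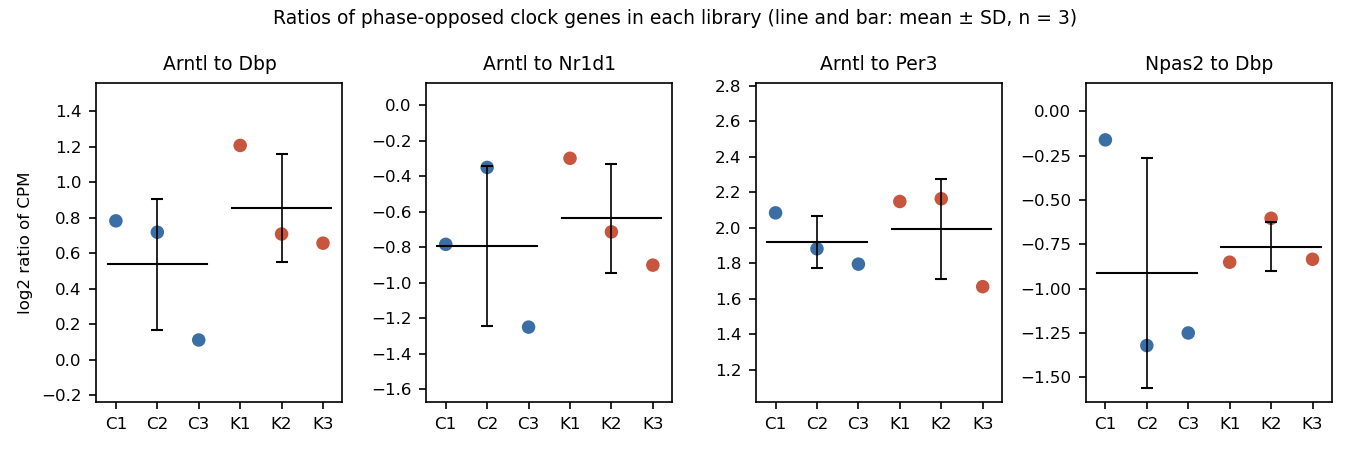
Log2 ratio of CPM of phase-opposed clock genes (y axes, each spanning the same number of log2 units) in control libraries (C1 to C3, blue) and KO libraries (K1 to K3, red), with the mean as a line and the SD as a bar (n = 3). The groups overlap in all 4 panels, and in that of Arntl to Nr1d1 the controls run from -1.25 to -0.35.

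Levels of different genes were compared per exon length, as TPM (counts per exon length, scaled to the same total in each library). Over the 6 libraries Nr1d2 was highest at 14.0 ± 3.9 TPM (SD, n = 6), followed by Cry2 at 12.1 ± 3.0, Nr1d1 at 11.0 ± 3.4 and Clock at 10.7 ± 1.8. Neighbours among these 4 were not separated, since Nr1d2 was above Cry2 in 5 of 6 libraries, Cry2 above Nr1d1 in 4 and Nr1d1 above Clock in 2. Nr1d2 was, however, above both Nr1d1 and Clock in every library. Clock was above Per1, at 6.32 ± 1.52 TPM, in 6 of 6. Dbp at 4.27 ± 1.44 TPM and Cry1 at 4.03 ± 0.89 could not be ordered, Dbp being higher in 3 of 6 libraries, nor could Per2 at 2.90 ± 0.77 and Arntl at 1.86 to 3.32, again 3 of 6. Per3 was lowest at 0.548 ± 0.139 TPM, below Arntl in 6 of 6 libraries and by 4.98-fold on average.

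Of the other genes of the clock pathway, 21 of 22 could be tested, the exception being Rorb, which encodes a ROR receptor and had at most 0.23 CPM. With DESeq2 0 of these 21 passed, but Ciart and Arntl2 were given no adjusted p there. None passed the edgeR test over all genes, 9 had positive and 12 negative values, and the median was -0.02. At an unadjusted p under 0.05 there were 2 higher and 1 lower, beside 4.83% and 2.54% of all tested genes. The groups did not overlap in 4 that were higher and 1 that was lower in KO, beside 7.94% and 5.94% of all tested genes. Noct encodes nocturnin, a rhythmic phosphatase of nicotinamide cofactors. It stood at 9.06, 9.38 and 9.85 CPM in controls and at 12.5, 16.0 and 15.9 CPM in KO, with no overlap (log2 fold change 0.64, SE 0.13, edgeR adjusted p = 0.203). Nfil3 encodes a repressor that competes with DBP for D-boxes. It stood at 10.1, 9.09 and 10.7 CPM in controls and at 15.5, 13.9 and 13.8 CPM in KO, again with no overlap (log2 fold change 0.53, SE 0.11, edgeR adjusted p = 0.298). Without the filter on low counts Noct and Nfil3 passed over all genes, at edgeR adjusted p of 0.00199 and 0.0281, in a fit where 300 genes passed in all. With DESeq2 the adjusted p was 0.0596 for Noct and 0.201 for Nfil3.

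Ciart encodes a repressor of the CLOCK and BMAL1 pair and had few counts: 8, 8 and 13 in controls and 4, 3 and 2 in KO. Its log2 fold change of -1.83 (SE 0.50, 95% interval -2.94 to -0.71) had an edgeR adjusted p of 0.515. Its CPM was lower in each KO library than in each control. The exact 95% Poisson intervals were 3.45 to 15.8 for 8 counts and 6.92 to 22.2 for 13 counts in controls. In KO they were 1.09 to 10.2 for 4 counts, 0.619 to 8.77 for 3 and 0.242 to 7.22 for 2. These intervals cover counting error only. The next genes by p were Btrc, which encodes a ubiquitin ligase subunit that acts on PER proteins (0.22, adjusted p = 0.727), the cell-cycle kinase gene Wee1 (-0.34, adjusted p = 0.731) and Bhlhe40, which encodes an E-box repressor (-0.25, adjusted p = 0.748). Usp2, a deubiquitinase gene, had a value of 0.25 (edgeR adjusted p = 0.752).

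Per1 is known to respond to cAMP, calcium and glucocorticoids within a short time, so genes of those responses were read beside it. Of 8 genes induced by cAMP or calcium, 7 had positive values, beside 47.8% of all tested genes, with a median of 0.17, and 0 passed the test. Nr4a1, an orphan nuclear receptor, was the only member of that list whose groups did not overlap (log2 fold change 0.65, SE 0.28, edgeR adjusted p = 0.674). Nr4a1 stood at 8.82, 9.09 and 4.97 CPM in controls and at 16.3, 9.23 and 9.51 CPM in KO. Control 2 and KO 2 were thus almost level. The mean deviation of that list was highest in KO 1, at 0.46, and lowest in KO 2, at -0.26. Per1 was highest in KO 3. Of 8 genes induced by glucocorticoids 6 had positive values, with a median of 0.15, and 0 passed. In this list only Zbtb16 had groups without overlap, at 0.72 to 0.96 CPM in controls and 1.00 to 1.36 CPM in KO. Its log2 fold change was 0.56 (SE 0.29, edgeR adjusted p = 0.727). Groups did not overlap in 13.9% of all tested genes. The mean deviation of the glucocorticoid list was highest in KO 3, at 0.16. In that library 3 of the 8 were at their highest, Tsc22d3 (25.3 CPM beside 16.3 to 20.7 in the other 5), Klf9 (96.7 CPM beside 64.5 to 72.5) and Errfi1 (29.5 CPM beside 15.9 to 22.9). The other 5 (Fkbp5, Sgk1, Zbtb16, Cdkn1c and Ddit4) were highest elsewhere, and Cdkn1c was lowest in KO 3.

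Genes with a profile like that of Arntl or Dbp were sought among 11176 protein-coding genes whose mean log2 CPM was 1 or more. Likeness was the root mean square difference between centred log2 CPM profiles over the 6 libraries. The 5 nearest to Arntl were Tspan17 (0.043), Rnd2 (0.055), B4galt1 (0.057), Svil (0.060) and Traf3ip2 (0.063). The nearest clock gene to Arntl was Cry1 at 0.160, and 8.64% of the candidates were nearer than that. The measure is not scaled for the size of the variation, so a gene that varies little can lie near without sharing a pattern. Cry1 spanned 1.24-fold over the libraries, beside 1.39-fold for Arntl, so its place does not show a likeness to Arntl. The 5 nearest to Dbp were Rcn3 (0.054), Dnah9 (0.057), Stmn3 (0.069), Sh2d5 (0.073) and Tubg2 (0.076). The nearest clock gene to Dbp was Nr1d2 at 0.126, followed by Nr1d1 at 0.170, and 0.591% of the candidates were nearer than Nr1d2. Arntl was at 0.320 from Dbp and Per1 was the farthest member, at 0.370.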

How the data were processed

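mRNA libraries of islets were sequenced in 3 control and 3 KO samples, and the authors deposited raw read counts per gene, the unit of every test here. The tools named are STAR (2.7.9) and featureCounts (2.0.0), and the genome builds mm10 and GRCm38.p6, per the submitters' processing notes. The strand setting, annotation release and handling of multi-mapping reads were not given in the sources used here. Column names were matched to samples by library name, and the names of all 3 KO columns end in a suffix with no explanation in the labels. Of 55401 identifiers, 55141 were given a symbol, 54349 of them with the same version.

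Genes were kept by filterByExpr (minimum count 10, minimum total 15) and tested with edgeR 4.0.16 (R 4.3.3, TMM, glmQLFit and glmQLFTest, genotype as the only term, two-sided), with Benjamini-Hochberg adjustment over all 14212 genes. The standard error is the fold change divided by the square root of the F statistic. Log2 CPM used a prior count of 0.5. Members and lists were chosen with earlier results of these data known. Of the other pathway genes, those with an unadjusted p under 0.05 and the 8 with the smallest p are named, except 1 that is not reported here, and other named genes of the cAMP and glucocorticoid lists were chosen after their values were seen. Alternatives were RLE normalization, no filter, DESeq2 1.42.0, the replicate number as a block, 2 covariates, a prior count of 2 and each library left out. No pair of libraries was a duplicate (lowest chi-square per degree of freedom 14.4 of 15 pairs). The test script was checked on simulated counts with known changes. Other steps used Python 3.11.15 with SciPy 1.17.1, NumPy 2.4.6, pandas 2.3.3 and matplotlib 3.10.9.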

Additional observations from a re-analysis of the deposited data

How the results depend on the processing

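None of the 10 clock genes was called in any of the 12 alternatives, the lowest adjusted p being 0.157 (edgeR, Per1 without the filter on low counts). The ribosomal RNA covariate differed between the groups without overlap, and that fit called 0 of all tested genes, so it says little on the clock genes. Of 120 member values under the alternatives, 111 kept their direction and 9 reversed, none of them a called value. With the ribosomal RNA locus as a covariate the log2 fold changes of Per2, Per3 and Cry1 became -0.12, -0.00358 and 0.0262, and with the acinar covariate that of Per3 became -0.0191. The cause was not tested. With a library left out Arntl ran from -0.0523 to 0.164, Per3 from -0.152 to 0.179 and Nr1d1 from -0.286 to 0.0140, and the median of the members from -0.02 to 0.17. Over all tested genes the number of calls, 10 in the main test, was 300 (174 higher, 126 lower) without the filter, 49 (19 and 30) with DESeq2, 43 (14 and 29) with the acinar covariate and 0 with the ribosomal RNA covariate (214 genes at an unadjusted p under 0.05), and 2 to 6 with a library left out, where fewer samples enter. The other pathway genes had 2 calls without the filter (Noct and Nfil3) and 0 in the other 11 alternatives. Without control 3, KO 1 or KO 3 only 20 of them were tested, Ciart being left out. DESeq2 gave Ciart and Arntl2 no adjusted p, so those fits made no call on them either way. With the replicate block 36 genes passed (11 and 25), 0 of them clock genes. Libraries with the same number deviated from their group means with correlations of 0.14, -0.13 and 0.14 (other pairs -0.23 to 0.14), so the pairing by number is not shown. Few counts limit Ciart (2 to 13) and Arntl2 (9 to 19) and, among the 10 clock genes, Per3 (37 to 100).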
